A study of Homo sapiens with 3 samples.

Results

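Olfactory receptor (OR) genes were examined as a set of genes at which few ZBTB11 peaks might be found in lung cancer cells. The members were the protein-coding genes of chromosomes 1 and 11 in GENCODE release 44 whose symbol is OR followed by a number, letters and a number. The rule used no measured value and gave 235 of 20033 protein-coding genes, 63 on chromosome 1 and 172 on chromosome 11. The other 3143 protein-coding genes of both chromosomes served for comparison, 1998 on chromosome 1 and 1145 on chromosome 11. The study mapped chromatin bound by ZBTB11, a zinc finger protein of the BTB family, by chromatin immunoprecipitation and sequencing (ChIP-seq). All libraries came from NCI-H1299, a human lung cancer line, untreated and fixed with formaldehyde. Its genotype is given as WT, and the paper describes the line as p53-null. The ZBTB11 group was 1 library made with an antibody to ZBTB11, and the IgG group was 1 library made with normal IgG as a negative control. With 1 library per group there was no replicate, so no test was possible, and every interval given is a 95% interval that covers counting error only. The peak lists hold no RNA values. Whether the OR genes were silent in these cells was not measured, and the cell line could not be checked against marker genes.

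OR genes encode the odorant receptors of the nose, a very large family of G protein-coupled receptors. Each olfactory sensory neuron transcribes a single OR allele, while the other OR genes stay in closed chromatin, and outside the olfactory epithelium most are not transcribed. The genes lie in clusters, typically have a coding sequence in a single exon, and lack the CpG-rich promoters of widely expressed genes. Class I receptors resemble those of fish and form a single cluster on chromosome 11, whereas the larger class II is spread over many clusters.

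The ZBTB11 list held 26942 peaks on chromosome 1 and 16160 on chromosome 11. The IgG list held 14441 peaks on chromosome 1 and none on chromosome 11, and chromosomes 1, 10, 21 and Y were the only ones of the main assembly on which it had peaks. IgG values are therefore given for chromosome 1 alone. Each listed peak carries a −log10 p, a −log10 q and a fold enrichment over the local background, from which the number of fragments at its summit was solved. At the genome-wide background of 1.35 fragments, the lowest ZBTB11 peak of 3 fragments had a −log10 p of 1.31, a peak of 4 fragments had 1.90 and a peak of 5 fragments had 2.57. The IgG background was 1.55 fragments, and its lowest peak had 4 fragments.

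Fewer OR genes than other genes had a ZBTB11 peak, and none had a strong one. Within 3 kb of a transcript start, 96 of 235 OR genes (40.9%, 34.8% to 47.2%) had a listed peak and 139 had none, while the share was 88.1% among the other protein-coding genes. Of the OR genes, 64 had 1 peak, 26 had 2, 5 had 3 and 1 had 4. Peaks of at least 5 fragments were present at 48 OR genes (20.4%, 15.8% to 26%), against 78.2% of the other genes. A q-value that did not exceed 0.05 was listed for peaks at 3 OR genes (1.28%, 0.435% to 3.69%), against 54.1%. For p of 1e-05 or below, 0 of 235 OR genes had a peak, which allows a share of up to 1.28% at 3 counts (1.61% as the upper Wilson bound), and the share of other genes was 45.2%. The gap between OR genes and other genes thus lay beyond the counting error at each of these limits.

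**Figure D1:**
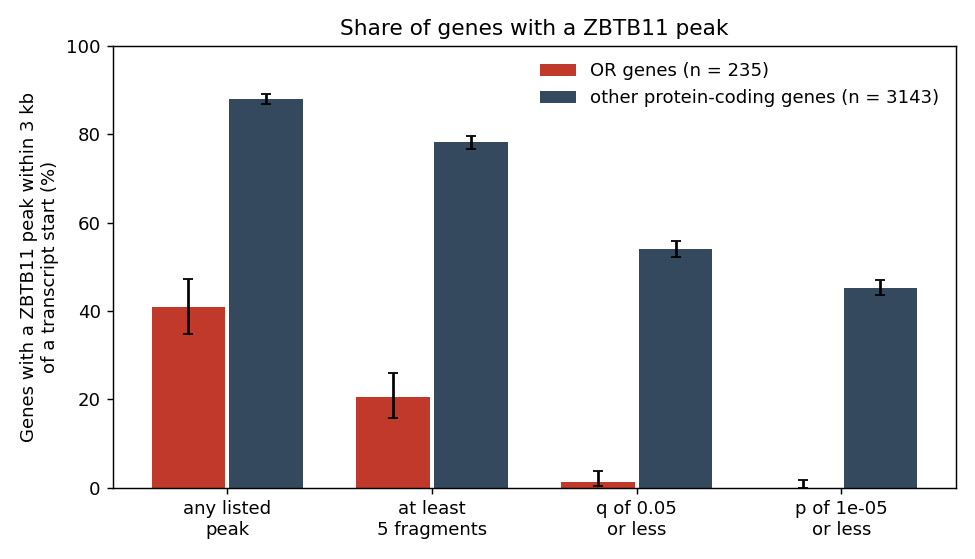
Share of genes (%, vertical axis) with a ZBTB11 peak within 3 kb of a transcript start under 4 limits on the peak, for OR genes (red) and other protein-coding genes of chromosomes 1 and 11 (blue), with 95% Wilson intervals. OR genes go from 40.9% for any listed peak to 0 for peaks with p of 1e-05 or less, whereas the other genes go from 88.1% to 45.2%.

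Both chromosomes showed the gap, and the intervals of their OR shares overlapped. On chromosome 1, 31 of 63 OR genes (49.2%, 37.3% to 61.2%) had a ZBTB11 peak against 88.2% of the other genes. On chromosome 11, 65 of 172 OR genes (37.8%, 30.9% to 45.2%) had one against 87.9%.

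Shares of genes depend on how much sequence is searched around each gene, and OR genes are annotated with fewer starts. The median OR gene had 1 start and a window of 6.001 kb, whereas the median other gene had 5 starts and 12.1 kb. The peaks were therefore also counted per Mb of merged windows. OR windows held 135 distinct peaks in 1.58 Mb, or 85.6 per Mb, and windows of the other genes held 151 per Mb, which gave a ratio of 0.566 (0.477 to 0.671). Sequence over 10 kb from the start of any annotated gene held 115 peaks per Mb, so that OR windows were also below this level, at a ratio of 0.747 (0.631 to 0.885). This second difference was present on chromosome 11, where the ratio to sequence away from starts was 0.628 (0.507 to 0.776). On chromosome 1 the ratio was 1.01 (0.762 to 1.34), so no such difference was detectable there. Against the other genes the ratio was 0.743 (0.561 to 0.985) on chromosome 1 and 0.497 (0.401 to 0.616) on chromosome 11. Restricted to p of 1e-05 or less, OR windows had no peak. Taking 3 peaks as the limit of a count of 0, the ratio was at most 0.0682 to the other genes. To sequence away from starts it was at most 0.613, with limits of 2.11 on chromosome 1 and 0.927 on chromosome 11. On chromosome 1 the count of 0 thus does not place OR windows below sequence away from starts.

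The peaks at OR genes were low. Of the 135, 24 had 3 fragments at the summit, 55 had 4, 44 had 5, 9 had 6, 2 had 7 and 1 had 8. The local background was at the genome-wide level for 97.8% of them, compared with 54.1% of the 6973 peaks at other genes and 87.3% of the 22399 peaks away from starts. Over the 96 OR genes with a peak, the −log10 p of the strongest one had a median of 2.06 and a range of 1.31 to 4.90, and its fold enrichment lay between 1.70 and 3.82. The corresponding median for other genes was 5.21, and no OR gene reached it. The strongest peak of 1432 other genes (45.6%) was above the largest value at any OR gene.

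**Figure D2:**
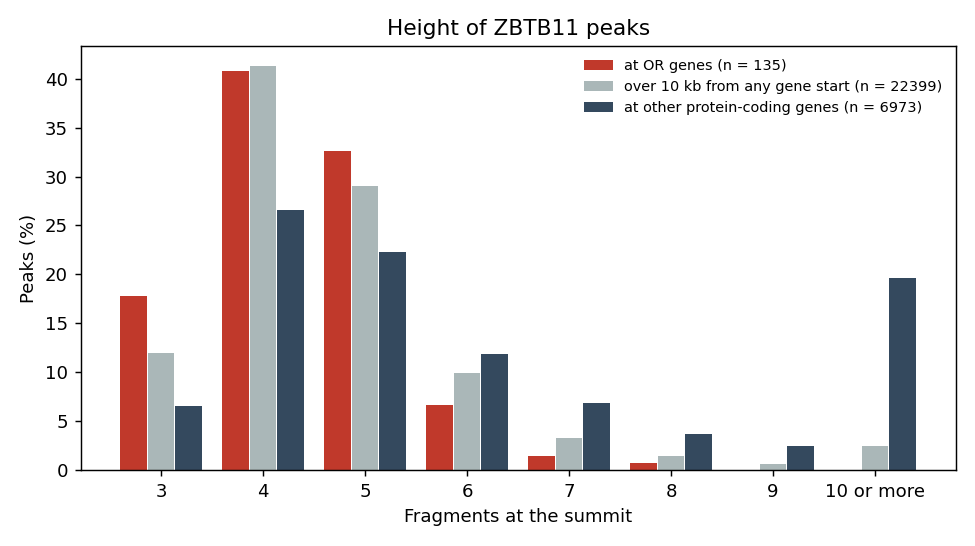
Percentage of ZBTB11 peaks (vertical axis) by the number of fragments at the summit (horizontal axis), at OR genes (red), in sequence over 10 kb from any gene start (grey) and at other protein-coding genes (blue). Peaks at OR genes end at 8 fragments, and 19.6% of those at other genes have 10 or more.

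The 3 OR genes that met the q-value limit of 0.05 were OR2L13, OR8B2 and OR2T33, all of class II. OR2L13 on chromosome 1 had 3 ZBTB11 peaks, with 5, 4 and 8 fragments. The strongest, at chr1:248099364-248099768 (hg38), had a −log10 p of 4.90, a −log10 q of 2.11 and a 3.82-fold enrichment, and its summit lay within the coding sequence of OR2L13, 2275 bp from the nearest start of the gene. OR8B2 on chromosome 11 had 1 peak of 7 fragments at chr11:124385382-124386257, with a −log10 p of 4.07, in intergenic sequence 1534 bp upstream of its start. OR2T33 on chromosome 1 had the most peaks of any OR gene, with 7, 4, 4 and 5 fragments. The strongest, at chr1:248273346-248273740, also had a −log10 p of 4.07, and its summit lay in the OR2T33 coding sequence, 332 bp from a start. The 31-mer at the OR2T33 summit occurs 4 times in the genome, so that reads there could have come from a copy. At the OR8B2 and OR2L13 summits the 31-mer is unique. Within 3 kb of the first start, 53.3% of the 31-mers of OR8B2 are unique. The OR2T33 and OR2L13 summits lay 4472 bp and 4367 bp from the first start, outside the window in which unique 31-mers were counted.

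The sequence under these summits is shown because the study described a binding motif with the core CCGGAAG or CAGGAAG, searched here on both strands within 50 bp of each summit. The lines below give 101 bp of the hg38 plus strand centred on each summit, with any match in capitals. None of the 3 strongest OR peaks held a match. The last line is the summit beside DMAP1, a component of chromatin-modifying complexes, which had 2 matches and was chosen to show what a match looks like. Of the other strong summits, that shared by RGS5 and NUF2 had 1 match and that of ATPAF1 had none.
OR2L13, chr1:248099501-248099601: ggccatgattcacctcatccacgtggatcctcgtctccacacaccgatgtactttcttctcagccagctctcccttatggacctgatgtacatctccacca
OR8B2, chr11:124385983-124386083: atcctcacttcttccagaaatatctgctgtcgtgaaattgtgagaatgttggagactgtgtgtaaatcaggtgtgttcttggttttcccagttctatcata
OR2T33, chr1:248273454-248273554: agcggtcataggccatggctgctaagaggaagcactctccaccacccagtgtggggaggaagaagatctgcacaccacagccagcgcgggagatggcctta
DMAP1, chr1:44213378-44213478: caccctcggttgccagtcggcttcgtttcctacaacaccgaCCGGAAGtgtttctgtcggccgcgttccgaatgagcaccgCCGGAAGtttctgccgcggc

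Across all peaks at OR genes, 5 of 135 summit windows (3.70%, 1.59% to 8.38%) held either form of the motif, and none held CCGGAAG, which allows up to 2.22%. Of the peaks at other genes, 8.22% held the motif, and of those with p of 1e-05 or less, 22.5% held it and 15.3% held CCGGAAG. Among peaks at other genes with at most 8 fragments, the range of OR peaks, the share was 4.64% (4.11% to 5.23%), and away from starts it was 2.79% (2.58% to 3.01%). The OR interval takes in both of these values and also the share over all peaks at other genes. The share at OR peaks was therefore not distinguishable from any of the 3, but lay below that of the peaks with p of 1e-05 or less.

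The motif was also counted at the starts themselves, from 250 bp before to 50 bp after the first transcript start. It was present at 22 of 235 OR genes (9.36%, 6.26% to 13.8%) and at 23.6% of the other genes. CCGGAAG was present at 2 OR genes (0.851%, 0.234% to 3.05%) and at 11.3% of the others. These OR windows had a median GC content of 37.7% and a median of 1 CpG, compared with 60.0% and 18 for the other genes. The OR sites are shown because they are the only copies of CCGGAAG at an OR start, with 10 bp to either side, on the plus strand of hg38, which is also the strand of both genes.
OR56A3, chr11:5938744-5938770: ggggagactaCCGGAAGctaaggagaa
OR5D18, chr11:55819495-55819521: ctcatagattCCGGAAGagatatttgc
The OR56A3 site begins 3 bp after the first start, in a window with 58.0% GC and 21 CpG, the most CpG of any OR start window. A start of another protein-coding gene lies 132 bp from a start of OR56A3. OR56A3 nevertheless had no listed ZBTB11 peak within 3 kb of its starts. The OR5D18 site begins 125 bp before the first start, in a window with 32.3% GC. OR5D18 had 2 peaks, of 4 and 3 fragments, and the nearer summit was 1658 bp from the site.

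Beyond the first 3, 8 OR genes shared the next value, a −log10 p of 3.29 from 6 fragments and a q-value above 0.05. They were OR10AG1, OR6M1, OR8D4, OR10D3, OR8G5 and OR8B8 on chromosome 11 and OR2T2 and OR2T29 on chromosome 1. The OR10D3 summit was 12 bp from the start of the gene, the closest strongest summit of all OR genes. The summits of OR6M1 and OR2T2 lay 369 bp and 701 bp from a start in intergenic sequence, and that of OR10AG1 lay in its own coding sequence. Those of OR8D4, OR8G5 and OR8B8 were in introns of the respective genes, and that of OR2T29 was in an intron of a long noncoding RNA, 2836 bp from the nearest OR2T29 start. Besides OR2T33, the genes with the most peaks were OR6F1, OR2L13, OR10V1, OR6M1 and OR8G1, with 3 each. One of the OR10V1 peaks, of 5 fragments, lay 650 bp from a start of STX3, a syntaxin of vesicle fusion. A start of another protein-coding gene lies 389 bp from that of OR10V1, so its peaks cannot be assigned to OR10V1 alone. Of the 135 peaks, 5 were also within 3 kb of a start of another protein-coding gene, and none was counted at more than 1 OR gene.

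Peaks at OR genes were not gathered at the starts. The summit of the strongest peak lay a median of 1736 bp from the nearest start at OR genes and 259.5 bp at the other genes. In the first 500 bp around the first start, OR genes had 46.9 summits per Mb (23.4 to 83.8) and the other genes 519 (494 to 545). In bins of 500 bp out to 10 kb, the OR values ranged from 42.6 to 97.9 per Mb with no maximum at the start. Between 2 and 5 kb from the start the other genes fell to between 70.0 and 76.4 per Mb, and OR genes had 59.6 to 97.9 per Mb over the same bins. A raised local background was more common at peaks of other genes than of OR genes. Its part in these counts was not tested.

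**Figure D3:**
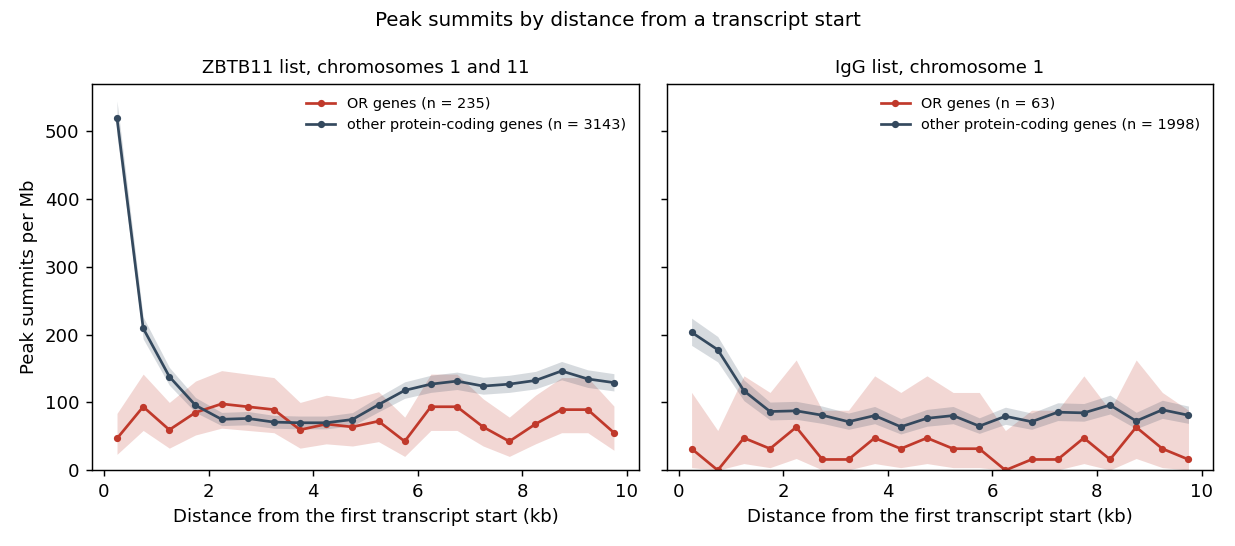
Peak summits per Mb (vertical axis) by distance in kb from the first transcript start (horizontal axis, bins of 500 bp, both sides joined) for OR genes (red) and other protein-coding genes (blue), in the ZBTB11 list on chromosomes 1 and 11 (left) and the IgG list on chromosome 1 (right); shading is the 95% Poisson interval. Other genes have 519 ZBTB11 and 203 IgG summits per Mb in the first bin, and OR genes have 46.9 and 31.8.

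IgG peaks were also less frequent at OR genes. On chromosome 1, 14 of 63 OR genes (22.2%, 13.7% to 33.9%) had an IgG peak within 3 kb of a start, against 67.2% of the other genes. The density was 32.1 per Mb in OR windows, 97.7 per Mb at the other genes and 54.5 per Mb away from starts. The OR density was thus 0.329 times (0.194 to 0.555) that of the other genes and 0.589 times (0.349 to 0.995) that of sequence away from starts. None of the OR genes had an IgG peak with q of 0.05 or less, which allows up to 4.76%, and neither did most other genes, of which 3.20% had one. The largest −log10 p of an IgG peak was at OR10Z1, with 4.45 from 8 fragments in its coding sequence, and OR10Z1 had no ZBTB11 peak. OR1C1 followed with 3.67 from 7 fragments, and OR2G3, OR2C3 and OR2L5 each had 2.95 from 6. The strongest IgG peak at an OR gene therefore had as many fragments as the strongest ZBTB11 peak.

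Part of the OR genes were on both lists. Of the 63 OR genes of chromosome 1, 7 had a peak of both kinds, 24 had ZBTB11 peaks alone, 7 had IgG peaks alone and 25 had neither. Of 49 ZBTB11 peaks there, 4 touched an IgG peak. Of the other 1998 genes of chromosome 1, 88.2% had a ZBTB11 peak and 67.2% an IgG peak. Overlap of the lists was not counted for these, so the overlap counts do not set OR genes apart. OR windows held 3.50 ZBTB11 peaks for each IgG peak (1.93 to 6.34), compared with 1.55 (1.48 to 1.62) at other genes and 2.04 (1.98 to 2.10) away from starts. The lists differ in their lowest peak, so the ratio was also taken at 5 or more fragments. It was then 17 to 14, or 1.21 (0.599 to 2.46), at OR genes, 1.11 (1.06 to 1.17) at other genes and 1.03 (0.995 to 1.07) away from starts. In OR windows this limit kept 17 of 49 ZBTB11 peaks and all 14 IgG peaks, so it changed the ZBTB11 count alone. Depth was not used, so equal numbers of fragments need not be equal heights in both libraries. With this limit an excess of ZBTB11 over IgG peaks at OR genes was not detectable.

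OR windows are poor in GC, and genes of like GC content were compared. In equal windows of 3 kb to either side of the first start, the median GC was 37.1% for OR genes and 48.8% for the others. Below 37.5% GC in these windows, 46 of 130 OR genes (35.4%, 27.7% to 43.9%) had a ZBTB11 peak. Among the other genes it was 53 of 94 (56.4%, 46.3% to 66.0%). From 37.5% to 40% GC the shares were 42.1% of 57 OR genes (30.2% to 55%) and 66.5% of 164 other genes (58.9% to 73.2%). From 40% to 42.5% they were 37.8% of 37 OR genes (24.1% to 53.9%) and 73.6% of 242 (67.7% to 78.7%). Over these 3 bins the share of other genes was higher in each higher bin, with overlap between neighbouring bins, and that of OR genes lay between 35.4% and 42.1%. Above 42.5% GC there were only 11 OR genes, of which 4 had a peak, and the shares of other genes lay between 79.8% and 86.7% without a steady order. For p of 1e-05 or less, the bin below 37.5% GC held 0 of 130 OR genes and 2 of 94 other genes, which the intervals do not separate. From 40% to 42.5% GC it held 0 of 37 (up to 8.11%) and 70 of 242 (28.9%, 23.6% to 34.9%).

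**Figure D4:**
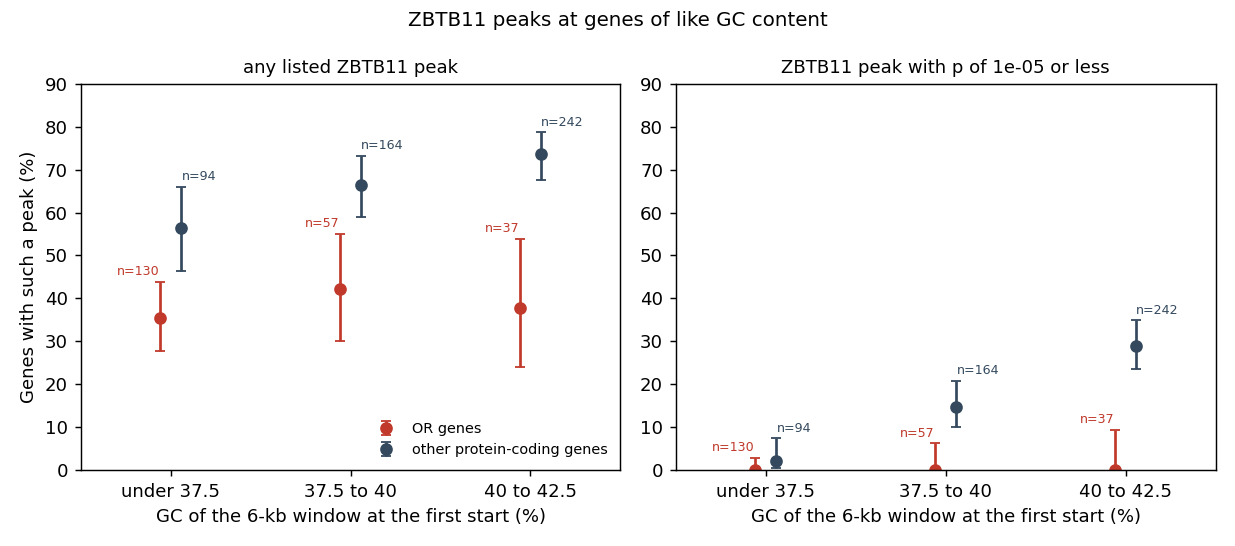
Share of genes (%, vertical axis) with any ZBTB11 peak (left) or one with p of 1e-05 or less (right) within 3 kb of the first start, by GC content of that 6-kb window (horizontal axis), for OR genes (red) and other protein-coding genes (blue) with 95% Wilson intervals and the number of genes. In all 3 bins the OR share of any peak is the lower one, for example 37.8% against 73.6% from 40% to 42.5% GC.

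In repeated sequence the place of a read can be uncertain. Repeats were measured by the share of 31-mers within 3 kb of the first start that are unique in the genome. The median was 94.0% for OR genes and 91.2% for the other genes. Under 50% of the 31-mers were unique at 13 OR genes, all on chromosome 1. Among genes with at least 90% unique 31-mers, 60 of 152 OR genes (39.5%, 32.1% to 47.4%) and 87.6% of the other genes had a ZBTB11 peak. The summit 31-mer was unique for 117 of the 135 peaks at OR genes.

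OR genes differed among themselves by cluster. Class I lay in a single cluster, so its class cannot be told apart from its region. Of the 55 class I genes, all in the cluster from OR52B4 to OR52W1, 14 (25.5%, 15.8% to 38.3%) had a ZBTB11 peak, of at most 5 fragments. Of the 180 class II genes, 82 (45.6%, 38.4% to 52.8%) had one. On chromosome 11 alone it was 51 of 117 class II genes (43.6%, 34.95% to 52.6%), an interval that overlaps that of class I. The density was 42.4 per Mb in class I windows and 99.2 per Mb in class II windows, or 91.7 per Mb for the class II genes of chromosome 11. Within class II, however, the clusters were unlike each other. Windows of the 22 genes from OR6X1 to OR8A1 on chromosome 11 held 166 summits per Mb (109 to 244), and 15 of these genes had a peak. Windows of the 48 genes from OR4A16 to OR5AK2 on the same chromosome held 63.2 per Mb (38.1 to 98.7), and 16 of these genes had a peak. The largest cluster of chromosome 1, 43 genes from OR2B11 to OR14I1, held 121 per Mb (85.2 to 167). The intervals of the first 2 clusters do not overlap, nor do those of OR6X1 to OR8A1 and class I, at 39.7 summits per Mb (22.2 to 65.5). By family, peaks were present at 12 of 23 OR8 genes, 19 of 39 OR2 genes, 12 of 26 OR10 genes, 13 of 35 OR5 genes, 10 of 29 OR4 genes, 7 of 27 OR52 genes and 5 of 22 OR51 genes.

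In these clusters the density at OR starts was close to that of the surrounding sequence. Outside the OR windows, the span from OR6X1 to OR8A1 held 161 summits per Mb (132 to 194), that from OR2B11 to OR14I1 104 (84.1 to 127), that from OR4A16 to OR5AK2 46.6 (35.8 to 59.7) and the class I span 48.7 (38 to 61.4). In each of the 9 clusters of at least 7 genes, the interval at OR starts overlapped that of the rest of the span. These regional values move with the OR counts, and their part in the difference between chromosomes was not tested. The number of copies of each region in this cell line cannot be read from the peak lists.

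**Figure D5:**
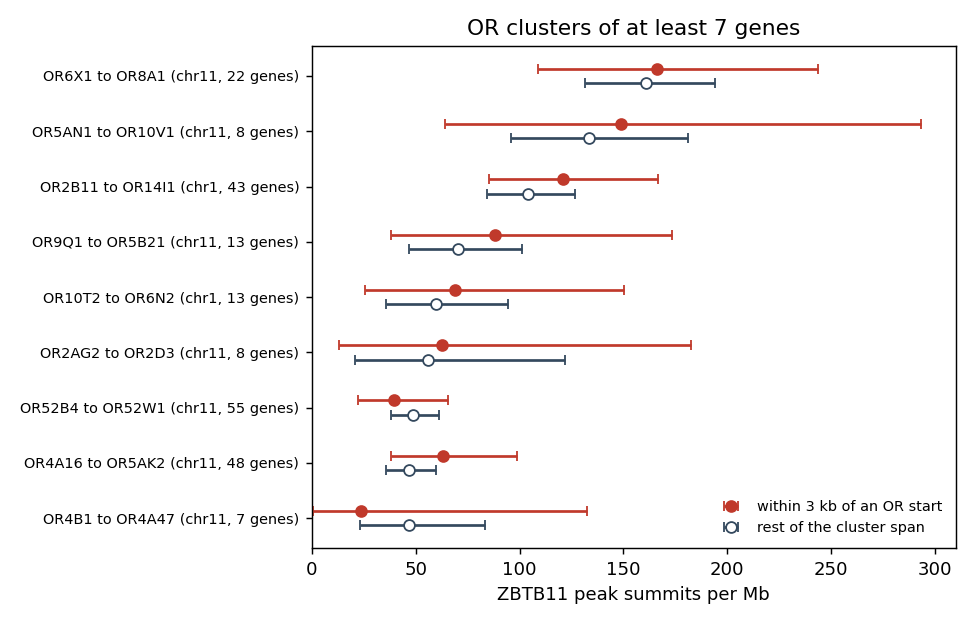
ZBTB11 peak summits per Mb (horizontal axis) within 3 kb of OR starts (red) and in the rest of the span between the first and last OR start (open blue), for the 9 clusters of at least 7 OR genes, with exact 95% Poisson intervals. The clusters range from 46.6 to 161 per Mb outside the OR windows, and the intervals of both values overlap in every cluster.

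Other genes within the same clusters showed that strong peaks occur in some of them. Between the first and last start of the OR clusters lay 36 other protein-coding genes, of which 8 have an OR symbol that ends in P. Of the 36, 23 (63.9%, 47.6% to 77.5%) had a ZBTB11 peak and 6 (16.7%, 7.87% to 31.9%) had one with p of 1e-05 or less. These 6 were OSBP, an oxysterol-binding protein, with 32 fragments and a −log10 p of 24.1; STX3 with 24 fragments; TRIM58, a ubiquitin ligase of red cell maturation, with 19; PATL1 with 15; and TRIM21 and VWA5A with 10 each. The GC content of their windows was between 40.7% and 47.2%. OSBP, STX3 and PATL1 all lay in the span from OR5AN1 to OR10V1. In the class I span 1 of 19 other genes had such a peak, and from OR4A16 to OR5AK2 it was 0 of 4. Within 10 kb of an OR start, 3 OR genes had a peak with p of 1e-05 or less. That of OR2D3 had 55 fragments and lay 5262 bp from the OR start and 140 bp from a start of ZNF215. Those of OR52D1 and OR2M2 had 9 fragments each, 5846 bp and 9108 bp from the OR start.

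Tissue-restricted families of the same chromosomes were counted in the same way. They were the late cornified envelope (LCE), small proline-rich (SPRR) and keratin-associated (KRTAP5) proteins of skin and hair, the PRAMEF genes of the germ line, the MRGPRX receptors of sensory neurons and mast cells and the beta-type globins of red cells. Of their 72 genes, 24 (33.3%, 23.5% to 44.8%) had a ZBTB11 peak, and the density was 67.1 per Mb. None reached the q-value limit of 0.05. Peaks were listed at 6 of 19 LCE, 3 of 11 SPRR, 8 of 22 PRAMEF, 3 of 11 KRTAP5, 2 of 4 MRGPRX and 2 of 5 globin genes, and the strongest peak, of 6 fragments, was at LCE6A. The share at OR genes, 40.9%, lies within the interval of these families. Their windows had a median GC content of 44%, above that of the OR genes.

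In shares alone, genes that serve odorant receptors were closer to protein-coding genes at large. Among the latter, 88.6% had a ZBTB11 peak on the main chromosomes. One with q of 0.05 or less was at 56.4%, and one with p of 1e-05 or less at 47.8%. Of 13 genes that serve odorant receptors, 11 had a peak, 9 had one with q of 0.05 or less and 4 had one with p of 1e-05 or less. Their annotated starts ran from 1 at OMP, CNGA2, RTP1 and RTP2 to 12 at ADCY3, against a median of 1 at OR genes. More sequence was thus searched at genes with many starts, and neither a density nor an interval was computed for this small set. The 4 were LDB1, LHX2 and EBF1, which act at the enhancers of OR genes, and RIC8B, a chaperone of the olfactory G protein. LDB1 had 47 fragments and a −log10 p of 32.6, LHX2 had 13 fragments and 6.93, RIC8B had 11 and 5.46, and EBF1 had 10 and 5.11. All 4 are also used outside the nose. Of the signalling genes, GNAL, the G protein subunit, had 9 fragments and 4.86, ADCY3, the adenylyl cyclase, had 8 and 4.87, and the chloride channel gene ANO2 had 7 and 4.04. CNGA4, a channel subunit, and OMP, the marker of mature sensory neurons, had 7 fragments and 4.07 each. CNGB1, another channel subunit, had 4 fragments and 1.90, and the receptor transporter RTP1 had 3 and 1.31. The channel gene CNGA2 and the transporter RTP2 had no peak. OMP and CNGA4 lie on chromosome 11 and had as many fragments as OR8B2 and OR2T33. Among the 235 OR genes of chromosomes 1 and 11, only OR2L13 had more.

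At the other end of the scale, the 3 other genes with the largest −log10 p and ATPAF1, all on chromosome 1, were far above the OR genes. RGS5 and NUF2 shared a peak of 482 fragments with a −log10 p of 462, DMAP1 had 491 fragments and 446, and ATPAF1, an assembly factor of the mitochondrial ATP synthase that the study also examined, had 307 fragments and 304.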

How the data were processed

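Chromatin was immunoprecipitated from NCI-H1299 cells and both ends of each fragment were sequenced. According to the methods, the authors aligned reads with BWA to hg38 and ran MACS on each antibody independently at a p-value below 0.05. The layout of the deposited lists is that of a later MACS release, so the release is uncertain. The deposited values were the fold enrichment (a ratio of summit to local background), the −log10 p, the −log10 q, a score derived from the p-value that was not used, and the summit position. Reads and depth were not used here. The Input library was not analysed here.

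Fragments at each summit and the background were solved from the fold enrichment and −log10 p, with a Poisson model and 1 added to both numbers, and the solution was within 0.001 of the deposited value for 100% of peaks. It was tested on simulated data. A limit of 5 fragments leaves the weakest peaks of both lists out, though no IgG peak at an OR gene. A limit of p below 0.05 is not corrected for the number of places tested, so low peaks need to be read against the other genes and the sequence away from starts.

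Transcript starts came from GENCODE release 44 on hg38. A peak was counted at a gene if its interval came within 3 kb of any start. Densities are distinct peaks per Mb of merged windows. Shares have Wilson intervals, densities Poisson intervals, and ratios Poisson intervals on the log scale. A share or ratio with a count of 0 was given the limit that 3 counts would set, which is slightly below the upper Wilson bound drawn in the plots. OR genes less than 500 kb apart formed a cluster. The 31-mers were counted as exact matches on both strands of the main chromosomes. Of the OR genes, 183 had a RefSeq promoter under the same symbol, so start windows were read from the hg38 genome for all genes instead, and where both were at the same position all 1273 sequences were identical.

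Genes were named by rule: the 10 OR genes with the largest −log10 p of a ZBTB11 peak, the 3 with the most peaks and the 3 with the largest −log10 p of an IgG peak, with ties kept; 13 olfactory genes; 6 families; the 3 other genes with the largest −log10 p; and ATPAF1. OR56A3, OR5D18 and the genes in or beside clusters were named after their values were seen. The members and lists were chosen with earlier results of these data known. Alternatives were windows of 1 kb and 10 kb, a single start per gene, summits in place of intervals, stricter limits, each chromosome alone and OR genes far from other genes; OR symbols ending in P and unique windows were added after seeing the data. Analyses used Python 3.11.15, pandas 2.3.3, SciPy 1.17.1, numba 0.67.0 and matplotlib 3.10.9.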

Additional observations from a re-analysis of the deposited data

How the results depend on the processing

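The share of OR genes with a ZBTB11 peak was 20.0% within 1 kb, 76.6% within 10 kb, 49.2% on chromosome 1, 20.4% at 5 or more fragments, 1.28% at q of 0.05 or less and 0 at p of 1e-05 or less. The ratio of OR density to that of other genes stayed below 1 in all 12 ZBTB11 alternatives, at 0.443 for 1 kb, 0.446 for the single 5′-most start, 0.743 on chromosome 1, 0.351 at 5 fragments, 0.0519 for the q-value limit and at most 0.0682 for the p-value limit. The ratio to sequence away from starts crossed 1 on chromosome 1 (1.01), and was 0.628 on chromosome 11. Over both chromosomes it was 0.283 for the q-value limit and at most 0.613 for the p-value limit. On chromosome 1 alone the p-value limit allowed up to 2.11. For IgG, the share of OR genes was 4.76% within 1 kb, 50.8% within 10 kb and 0 for the q-value limit, and the ratio to other genes was 0.148 within 1 kb. For the q-value limit the IgG ratio could not be told, as 0 OR peaks allow up to 3.50. The cause of these shifts was not tested, except that stricter limits and narrower windows count fewer peaks by construction. Of 53 alternatives over 6 results, the other 32 stayed within the reported interval, among them all 4 added after seeing the data. No replicate could be left out. No paired analysis was possible because there was only 1 library of each kind. The lists give no depth per position, so an OR gene without a listed peak had fewer fragments than the limit of the list, which does not show that ZBTB11 was absent.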

Other observations

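OR pseudogenes of chromosomes 1 and 11 also had low ZBTB11 peaks or none. Of 225, 78 (34.7%, 28.8% to 41.1%) had a listed ZBTB11 peak in the same window, 2 had one with q of 0.05 or less and none had one with p of 1e-05 or less. Their windows held 75.2 peaks per Mb, and those of the protein-coding OR genes 85.6.

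Strong ZBTB11 peaks were present at a few OR genes of the other chromosomes. Of 165, 87 (52.7%, 45.1% to 60.2%) had a ZBTB11 peak and 3 (1.82%, 0.620% to 5.21%) had one with p of 1e-05 or less, while 88.7% and 48.3% of the other protein-coding genes there did. The 3 were OR1F1 on chromosome 16, with 15 fragments and a −log10 p of 8.55 at a summit 638 bp from its start; OR4D2 on chromosome 17, with 13 fragments and 7.85; and OR12D2 on chromosome 6, with 9 fragments and 5.15. They were named after their values were seen.

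Other protein-coding genes of chromosomes 1 and 11 had fewer ZBTB11 summits at 2 to 5 kb from the first start, with 70.0 to 76.4 per Mb in each bin of 500 bp, than beyond 5.5 kb, where bins held 118 to 146 per Mb. At OR genes the bins from 2 to 5 kb held 59.6 to 97.9 per Mb and those beyond 5.5 kb held 42.6 to 93.6. A peak needs more fragments where the local background is higher. That background was at the genome-wide level for 54.1% of peaks within 3 kb of other genes and 97.8% of those at OR genes. Its part in this pattern was not tested.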
